A study of Mus musculus with 8 samples.

Results

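The genes described are those of the cytosolic ribosomal proteins, measured on microarrays in hepatocellular carcinomas of mice and in the liver beside each tumor. A gene was included when the array annotation gave a probe the single symbol Rpl or Rps followed by a number, or Rplp0, Rplp1, Rplp2 or Rpsa. Rps6k kinases and names ending in -ps were left out. This gave 63 genes of the 19938 that had a probe with a single symbol, drawn from 219 probes, and the brightest probe of a gene, by its mean over the 8 arrays, stands for it. Of the 63, 54 encode core subunits of the ribosome, 21 of the small and 33 of the large subunit. The other 9 were the paralogs Rpl3l, Rpl7l1, Rpl10l, Rpl39l, Rps4l and Rps27l, the retroposed copies Rpl32l and Rps23rg1, and Rps19bp1, which is named for binding Rps19 and is no ribosomal protein. The test included 60 of the 63, all 54 core genes among them, because Rpl3l, Rpl10l and Rpl39l lay below the level under which genes were left out.

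The samples came from 4 male C57BL/6J mice, M24, M48, M50 and M60, which had received an AAV (adeno-associated virus) vector at 2 to 3 months of age. They were followed on a normal diet and necropsied 18 months after the injection, and from each mouse a piece of tumor and a piece of adjacent liver described as normal were snap frozen. Both groups therefore share the vector, the age, the sex and the strain, and liver of a mouse without vector was not analysed here. The labels do not say what the vector carried, and each mouse contributed 1 tumor sample. All levels are deposited log2 values and ± is their SD. A difference is the tumor value less the adjacent value of the same mouse on the log2 scale, averaged over n = 4 pairs. Rose and fell are used where limma's paired test, adjusted over 11963 genes, gave an adjusted p under 0.05.

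Ribosomes are built from ribosomal RNA and ribosomal proteins, which are needed in nearly equal numbers and whose genes are among the most strongly transcribed in any cell. Their mRNAs start with a C followed by a run of pyrimidines, the TOP motif (terminal oligopyrimidine), through which mTOR and the RNA-binding protein Larp1 control their translation. The transcription factor Myc raises the production of both ribosomal RNA and ribosomal proteins, and the liver makes much of the protein found in blood, so that the demand for ribosomes there is high. Many ribosomal protein genes have intronless copies elsewhere in the genome, so a probe can take up signal from more than 1 copy.

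Of the 60 genes tested, 5 rose in the tumors: Rps12, Rpl38, Rpl32l, Rps4x and Rpl27. One gene fell, Rps4l. The start regions of the genes that changed are shown because the TOP motif lies there, together with that of Rps6, a gene that did not pass the test. They are RefSeq sequences on build GRCm38.p6, 30 bases before and 20 bases from the annotated start on, 5′ to 3′ on the gene's strand, and capitals mark the longest run of a C followed by at least 4 pyrimidines.
Rps12 (chr10:23787190-23787239, minus strand): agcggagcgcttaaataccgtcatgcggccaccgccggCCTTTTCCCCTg
Rpl38 (chr11:114668550-114668599, plus strand): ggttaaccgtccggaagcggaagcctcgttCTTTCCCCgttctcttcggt
Rpl27 (chr11:101442215-101442264, plus strand): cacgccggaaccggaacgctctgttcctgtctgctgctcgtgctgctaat
Rps4x (chrX:102189372-102189421, minus strand): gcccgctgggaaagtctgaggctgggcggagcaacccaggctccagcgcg
Rpl32l (chr10:20208409-20208458, plus strand): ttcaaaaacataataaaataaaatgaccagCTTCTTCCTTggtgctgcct
Rps6 (chr4:86857348-86857397, minus strand): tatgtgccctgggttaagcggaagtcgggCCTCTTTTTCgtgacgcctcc
In Rpl38 and Rpl32l the run begins at the annotated start itself, in Rps6 it begins 1 base before it, and in Rps12 it begins at base 9. The windows of Rpl27 and Rps4x hold no such run. For Rps4l the table has no entry.

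As a group, the ribosomal protein genes lay slightly higher in the tumors, and few of them singly passed the test. The difference was positive in 51 of the 60 genes and negative in 9, with a median of 0.15, which is 1.11-fold, a middle range from 0.0559 to 0.24 (quartiles) and extremes of -0.703 and 0.468. The median over all 11963 genes tested was 0.0008. A positive difference was found in 85% of the 60, against 50.1% of all genes tested. The 5 genes that rose are 8.33% of the 60, while 16.3% of all genes tested rose, and the 1 that fell compares with 15.7% of all genes. The share of ribosomal protein genes past the threshold was thus below that of the array in both directions. At an unadjusted p under 0.05, 16 genes were higher and 1 was lower, against 2534 and 2556 of all 11963 genes tested.

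The direction was shared by more of these genes than the calls show. In 26 of the 60, which is 43.3%, the tumor was higher in all 4 mice, against 24.6% of all genes tested. One gene, Rps4l, was lower in all 4 mice, against 25.3% of all genes. Groups without overlap were less common: in 6 genes (Rpl23a, Rpl27, Rpl38, Rpl4, Rps12 and Rps19bp1), or 10% of the 60, every tumor array lay above every adjacent array, against 14.9% of all genes, and Rps4l was the 1 gene with every tumor array below, against 15.6%. Both subunits took part, with a positive difference in 20 of 21 small subunit genes (median 0.136, 2 rose) and in 29 of 33 large subunit genes (median 0.178, 2 rose). Without M50 these medians were 0.0604 and 0.0951. Of the 54 core genes 0 fell in limma, against 15.7% of all genes tested. A negative difference at an unadjusted p under 0.05 was found in 0 of them, against 2556 of all 11963 genes. The difference between the subunits' medians was not tested.

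**Figure D1:**
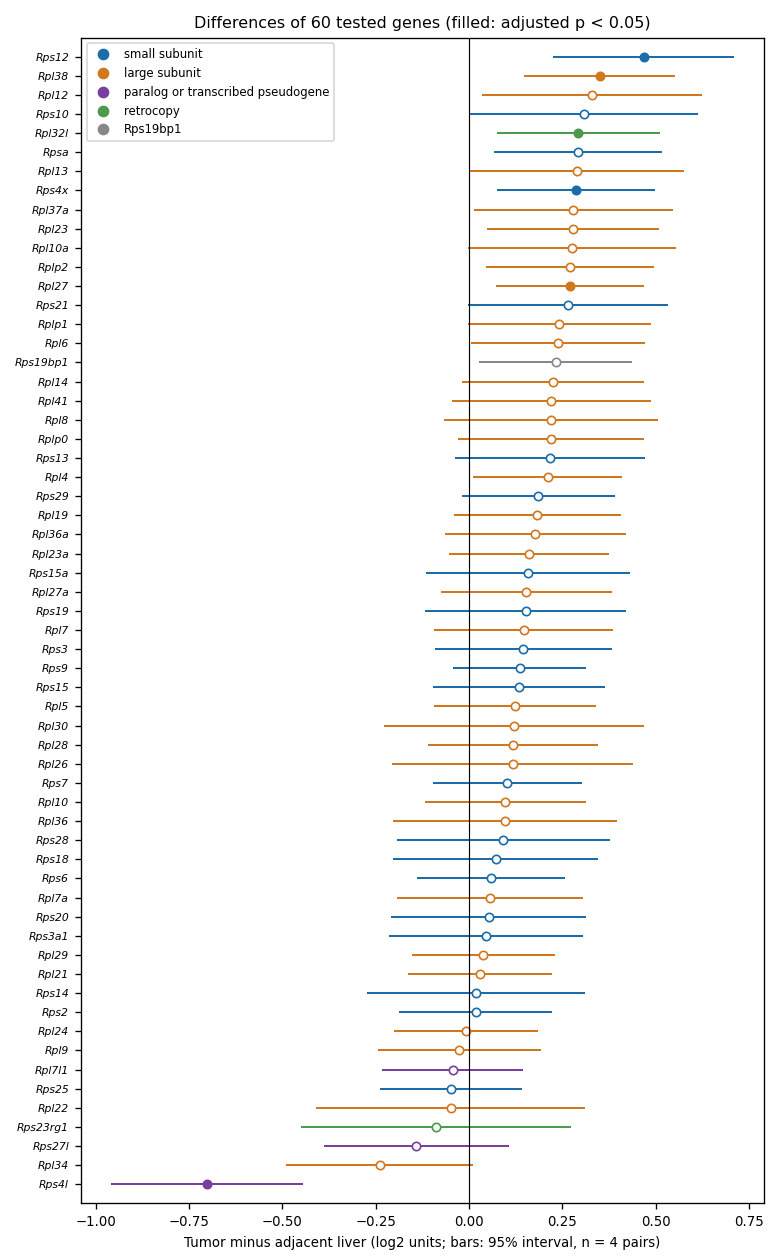
Difference between tumor and adjacent liver in log2 units (horizontal axis) for the 60 tested genes, sorted by size, with 95% intervals of limma's paired fit over 4 mice; color gives the class and filled points passed an adjusted p of 0.05. Most points lie to the right of 0, from 0.468 for Rps12 downwards, while most intervals include 0 or come close to it, and Rps4l stands apart at -0.703.

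The size of the shift differed between the mice. The median difference over the 60 genes was 0.0468 for M24, 0.0624 for M48, 0.381 for M50 and 0.149 for M60 (SD over mice 0.154), and the number of genes higher in the tumor was 37, 46, 54 and 47 in the same order. That is 61.7%, 76.7%, 90% and 78.3%, against 46.2%, 50.7%, 49.8% and 49.6% of all genes tested. M50 had the largest difference of the 4 mice in 47 of the 60 genes, whereas it had the largest difference in 25.5% of all genes tested. All 33 large subunit genes were higher in the tumor of M50, and of the core genes only Rps25 and Rps6 were not, Rps6 on the probe used alone, since its other 7 probes were higher there. Without M50 the median over the 60 genes was 0.0863, with 42 genes positive.

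Levels by array show which samples were high. In adjacent liver the median level of the 54 core genes was 10.89 for M24, 11.09 for M48, 10.86 for M50 and 10.89 for M60. In the tumors it was 11 for M24, 11.16 for M48, 11.27 for M50 and 11.07 for M60. The tumor median was above the adjacent median in each mouse, but the adjacent liver of M48 was above the tumors of M24 and M60. That adjacent sample had the highest of the 4 adjacent levels in 44 of the 60 genes, and the tumor of M50 had the highest tumor level in 41. The median over all genes tested ran from 6.946 to 7.019 over the 8 arrays, and its lowest value was that of the same adjacent liver of M48.

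**Figure D2:**
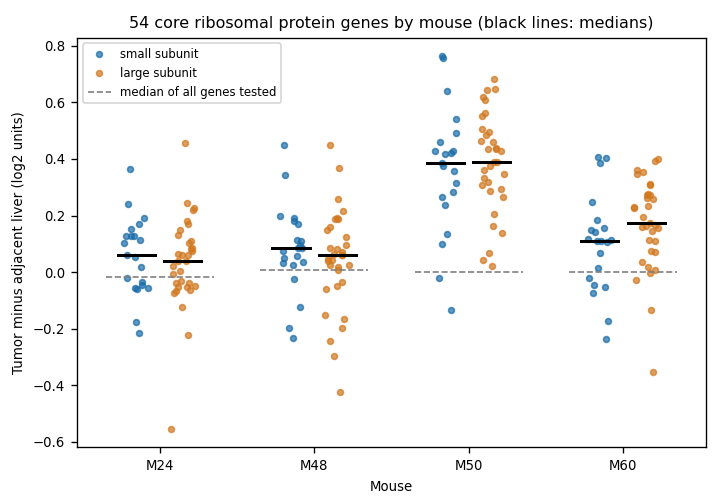
Tumor minus adjacent difference in log2 units (vertical axis) of each of the 54 core genes in each mouse, small and large subunit side by side; black lines are medians and dashed lines the median of all genes tested in that mouse. In M50, 52 of the 54 points lie above 0, around a median of 0.389, while the medians of M24, M48 and M60 lie nearer to 0, at 0.056, 0.0624 and 0.152.

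Markers of cell types also differed between the tissues, and in bulk samples fewer cells of a type and less RNA per cell cannot be told apart. For comparison, 16.3% of all 11963 genes tested rose and 15.7% fell, and 2534 were higher at an unadjusted p under 0.05. Of 8 measured hepatocyte markers 4 fell and 1 rose, and their summed linear level was 70567 to 76771 in adjacent liver and 53803 to 64058 in tumors, lowest in the tumor of M50. Of 8 endothelial markers 5 rose, with sums of 1672 to 2164 in adjacent liver and 2179 to 3049 in tumors, highest in the tumor of M50. Among 9 stellate cell and fibroblast markers 5 rose, with sums of 2391 to 4909 and 3924 to 5355. Of the 9 macrophage markers 1 rose and 4 fell, with sums of 1722 to 6732 and 2489 to 6560, and the adjacent liver of M48 had the highest of these sums. The tumor mean lay above the filter value for only 8 of the 9, and a marker that passed through adjacent liver alone had to be lower in the tumors. For lymphocytes and plasma cells 0 of 7 tested markers passed in limma while 4 were higher at an unadjusted p under 0.05, 5 of 12 lay below the filter value, among them Cd3d, Cd4 and Ms4a1, and the sums were 289 to 545 and 502 to 1853. The adjacent mean lay above the filter value for only 6 of these markers, and a marker that passed through the tumors alone had to be higher there. Of 4 tested cholangiocyte markers 2 rose (Krt19 and Sox9), Cftr lay below the filter value, and the sums were 186 to 198 and 252 to 463. The adjacent mean lay above the filter value for only 3 cholangiocyte markers. A marker that passed the filter through its tumor level alone had to be higher in the tumors, so its direction is no result. The part of these cell types in the ribosomal protein differences was not tested.

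Rps12, a small subunit protein known in flies for its role in competition between cells of unequal ribosomal protein dose, showed the largest rise. Its level in adjacent liver was 11.24 (M24), 11.42 (M48), 11.14 (M50) and 11.21 (M60). In the tumors it was 11.61, 11.76, 11.90 and 11.62 in the same order, so the lowest tumor lay above the highest adjacent sample. The difference was 0.468 (SE 0.1, adjusted p = 0.0139), a 1.38-fold rise from 11.25 ± 0.117 to 11.72 ± 0.139. By mouse it was 0.364, 0.343, 0.763 and 0.403, so M50 again had the largest. All 14 Rps12 probes were higher in the tumors, by 0.439 to 0.499, but they hold only 8 different sets of values and 5 of them repeat the values of the probe used, so they are not independent measures. Without M60 the adjusted p was 0.0537.

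Rpl38, a large subunit protein whose loss in the Tail-short mouse alters the axial skeleton, was next. Its adjacent levels were close together, at 10.38 (M24), 10.46 (M48), 10.38 (M50) and 10.39 (M60). Its tumor levels were 10.56, 10.83, 10.84 and 10.78, so the groups did not overlap and the tumor of M24 was the lowest. The difference was 0.351 (SE 0.0834, adjusted p = 0.0203), or 1.28-fold, and its 4 probes gave 0.293 to 0.351. The call was lost without M48, without M50 or without M60, with an adjusted p of at most 0.096.

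Rps4x, the X-linked gene of a small subunit protein, and Rpl27, a large subunit protein mutated in some families with Diamond-Blackfan anemia, rose by smaller amounts. Rps4x was 10.88, 11.10, 10.85 and 10.86 in adjacent liver of M24, M48, M50 and M60, and 11.03, 11.28, 11.28 and 11.25 in the tumors. The groups overlapped, because the adjacent liver of M48 lay above the tumor of M24. Its difference was 0.286 (SE 0.0876, adjusted p = 0.0472). Rpl27 was 9.987, 10.14, 9.94 and 10.04 in adjacent liver and 10.21, 10.33, 10.38 and 10.27 in the tumors, with no overlap. The difference of Rpl27 was 0.271 (SE 0.0816, adjusted p = 0.0446). Neither call held when any 1 of the 4 mice was left out, nor, with all mice, when arrays were centred on their median, without the filter or without the mean-variance trend, and that of Rpl27 was also lost with the mean of all probes, with adjusted p-values of up to 0.193 for Rps4x and 0.136 for Rpl27 over the alternatives tried.

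Rpl32l, which is named as a copy of Rpl32, was 5.794, 6.00, 5.983 and 5.845 in adjacent liver of M24, M48, M50 and M60. In the tumors it was 5.956, 6.295, 6.36 and 6.182, and only the tumor of M24 lay within the adjacent range. The difference was 0.293 (SE 0.0901, adjusted p = 0.0479), and the call held in 2 of 10 alternatives, with an adjusted p of up to 0.158. Signal of Rpl32 itself on a probe of such a copy cannot be told apart from that of the copy.

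Rps4l, named after Rps4 and listed in RefSeq as a transcribed pseudogene, moved the other way. It was 7.459, 6.771, 6.958 and 7.083 in adjacent liver and 6.575, 6.355, 6.229 and 6.302 in the tumors of M24, M48, M50 and M60. Every tumor lay below every adjacent sample, and the difference of -0.703 (SE 0.106, adjusted p = 0.00412) leaves the tumors at 0.614 of the adjacent level. Its second probe gave -0.384, a smaller difference of the same sign, with -0.759 and -0.391 in M24 and M48 but -0.184 and -0.20 in M50 and M60. Rps4l fell in all 11 alternatives, with adjusted p-values of 0.00297 to 0.0225. Its fall stands beside the rise of Rps4x, the gene of the protein it is named after.

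**Figure D3:**
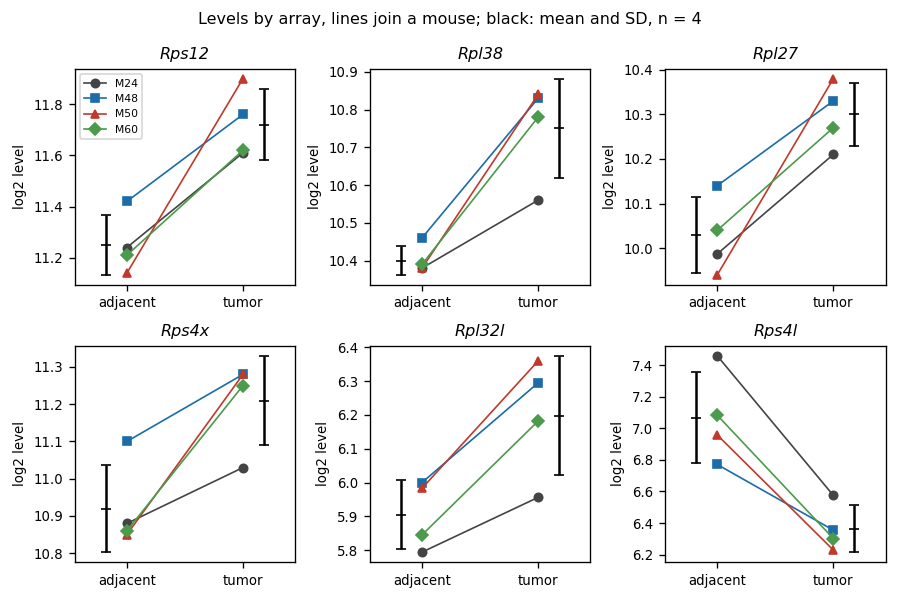
Log2 level (vertical axis, a separate range for each gene that does not start at 0) of the 6 genes past the threshold in adjacent liver and tumor; lines join the samples of a mouse, and black bars give the mean and SD of 4 mice. Every line rises in Rps12, Rpl38, Rpl27, Rps4x and Rpl32l and falls in Rps4l, and the line of M50 is the steepest of Rps12, from 11.14 to 11.90.

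The stalk of the large subunit, made of Rplp0 and pairs of Rplp1 and Rplp2, recruits the GTPases of translation. Rplp0 was 11.95, 12.11, 11.93 and 11.87 in adjacent liver of M24, M48, M50 and M60, and 11.88, 12.37, 12.23 and 12.27 in the tumors, a difference of 0.219 (adjusted p = 0.155) that was negative in M24. Rplp1 was higher in all 4 mice, by 0.0602, 0.0864, 0.462 and 0.36, with a mean of 0.242 (adjusted p = 0.119). Rplp2 was also higher in all 4 mice, by 0.132, 0.216, 0.39 and 0.347, with a mean of 0.271 (adjusted p = 0.0674), but its probe was dim, at 4.941 ± 0.131 in adjacent liver against a filter value of 4.597. All 3 stalk genes thus had positive means, and none passed the test.

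Rpsa, a small subunit protein also known as the laminin receptor, came nearest to the threshold among the genes that missed it. Its levels were 10.66, 10.92, 10.69 and 10.67 in adjacent liver and 10.76, 11.12, 11.15 and 11.08 in the tumors, higher in the tumor of each mouse. The difference was 0.292 (SE 0.0929, adjusted p = 0.0536), and it passed under quantile normalization (adjusted p = 0.041) and with the lowest 60% of genes left out (adjusted p = 0.0482). The call of Rpsa thus turns on the processing.

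Rpl5 binds the smallest ribosomal RNA and, with Rpl11, holds back the p53 regulator Mdm2 when ribosome assembly fails. It was 11.63, 11.70, 11.57 and 11.50 in adjacent liver and 11.59, 11.75, 11.85 and 11.69 in the tumors, a difference of 0.123 (adjusted p = 0.343). Rps6, the small subunit protein phosphorylated by the S6 kinases, varied little, at 12.67, 12.64, 12.63 and 12.65 in the tumors and 12.56, 12.61, 12.65 and 12.54 in adjacent liver. Its difference was 0.0588 (adjusted p = 0.625), with a 95% interval from -0.136 to 0.254, so a change of up to 1.19-fold cannot be told from none with 4 pairs. The other Rps6 probes gave 0.107 to 0.158. Rpl10, a late-joining large subunit protein that had the brightest probe of the group, was 12.99, 13.12, 12.96 and 12.99 in adjacent liver and 12.94, 13.18, 13.17 and 13.16 in the tumors (difference 0.0974, adjusted p = 0.451). Brightness of a probe does not rank the transcripts of different genes.

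Of the 54 core genes 24 were higher in all 4 mice (44.4%, against 24.6% of all genes tested). Only 4 passed the test (7.41%, against 16.3% of all genes that rose), and among those that missed it several had 1 large difference, that of M50. Rps10, a small subunit protein, was 10.72, 11.07, 10.6 and 10.75 in adjacent liver of M24, M48, M50 and M60, and 11.16 or less in the tumors of all but M50, which was at 11.36. Its difference was 0.758 for M50 and at most 0.249 for the other mice (mean 0.307, adjusted p = 0.114). Rpl13 gave 0.684 for M50 and 0.0255 to 0.226 for the others (mean 0.289, adjusted p = 0.114), and Rpl37a gave 0.609 and 0.0089 to 0.261 (mean 0.28, adjusted p = 0.0998). Rpl23, which like Rpl5 can bind Mdm2, was higher by 0.171, 0.124, 0.507 and 0.312 (mean 0.279, adjusted p = 0.0669), and it passed without the replicate block and under quantile normalization. Rpl4, which lines the exit tunnel of the nascent chain, was the more even one, at 11.96, 12, 11.91 and 11.89 in adjacent liver and 12.08, 12.16, 12.18 and 12.2 in the tumors, with no overlap (difference 0.211, adjusted p = 0.0986).

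Other genes known from human disease were among those with small differences. Rps19, the gene most often mutated in Diamond-Blackfan anemia, was 9.254, 9.6, 9.185 and 9.547 in adjacent liver and 9.496, 9.712, 9.614 and 9.374 in the tumors, lower in the tumor of M60 only (difference 0.153, adjusted p = 0.344). Rps14, deleted in a myelodysplastic syndrome, gave -0.216, -0.198, 0.376 and 0.111 (mean 0.0185, adjusted p = 0.921). Rps2 and Rps3, of the small subunit's mRNA entry, gave means of 0.0184 and 0.145 (adjusted p = 0.888 and 0.304). The core genes not described one by one ranged from -0.0259 for Rpl9 to 0.276 for Rpl10a.

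On the probes used, some core genes went against the general direction or varied widely between mice. Rpl34 had the lowest difference of the core genes, -0.239 (adjusted p = 0.127), lower in M24, M48 and M60 and higher by 0.0417 in M50. Rps25 was lower in 3 mice (difference -0.048, adjusted p = 0.682). Rpl22 had the widest spread, with differences of -0.553 (M24), -0.0482 (M48), 0.388 (M50) and 0.0174 (M60), a mean of -0.0489 that has no settled sign. Rpl30 followed, with 0.102, -0.296, 0.564 and 0.112. Leaving out M24 turned the mean of Rpl22 to 0.119, and leaving out M50 turned that of Rpl30 to -0.0275. The values of Rpl30 and Rpl34 depended on the probe. A brighter probe that Rpl30 shares with Gm12191 and Gm5481 gave 0.0725, 0.317, 0.515 and 0.356 (mean 0.315, adjusted p = 0.0519). A brighter probe that Rpl34 shares with Gm4705 and Rpl34-ps1 gave a mean of 0.0428 (adjusted p = 0.759). Signal of the other genes on these shared probes cannot be told apart from that of Rpl30 and Rpl34.

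The 3 tested paralogs had negative differences, and Rps4l, above, was the 1 that passed. Rps27l, a target of p53, was 9.738, 9.761, 9.966 and 9.996 in adjacent liver and 9.751, 9.809, 9.548 and 9.79 in the tumors of M24, M48, M50 and M60. Its difference of -0.141 (adjusted p = 0.342) came from M50, at -0.419, and M60, at -0.205, and M50 is the mouse in which the core genes had their largest positive median. Rpl7l1, which acts in assembly of the large subunit, had a difference of -0.044 (adjusted p = 0.706) and lay within 8.84 to 9.039 on all 8 arrays. Rps23rg1, a retroposed copy of Rps23, varied most between the adjacent samples, from 5.173 to 6.557, and its mean difference was -0.0875 (adjusted p = 0.697).

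Rpl3l is known from striated muscle and Rpl10l and Rpl39l from testis, and none of the 3 reached the filter value in its mean. Rpl3l was 3.354 to 3.622 in adjacent liver and 3.485 to 3.495 in the tumors. Rpl39l, which had the dimmest probe of the group, was 2.758 to 2.923 in adjacent liver and 2.892 to 2.914 in the tumors. Rpl10l was 4.2 to 4.528 in adjacent liver and 3.793 to 4.511 in the tumors. Detection calls were not used here, so these levels cannot be told from background and no fold change is given. Rps19bp1, a regulator of the deacetylase Sirt1, was 7.839, 7.755, 7.868 and 7.843 in adjacent liver and 7.996, 7.978, 8.265 and 7.994 in the tumors. The groups of Rps19bp1 did not overlap, yet its difference of 0.232 missed the threshold (adjusted p = 0.0822).

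Probes of the same gene gave the same sign with few exceptions. Of 39 genes with several probes, Rpl24 and Rpl7a had probes of both signs, with values from -0.00727 to 0.0684 and from -0.0114 to 0.0567. Of the 219 probes, 216 lay above the filter value, and 193 of these had a positive difference. The 5 genes with identical values on several probes account for 19 probes, so the probes are fewer measurements than their number says.

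**Figure D4:**
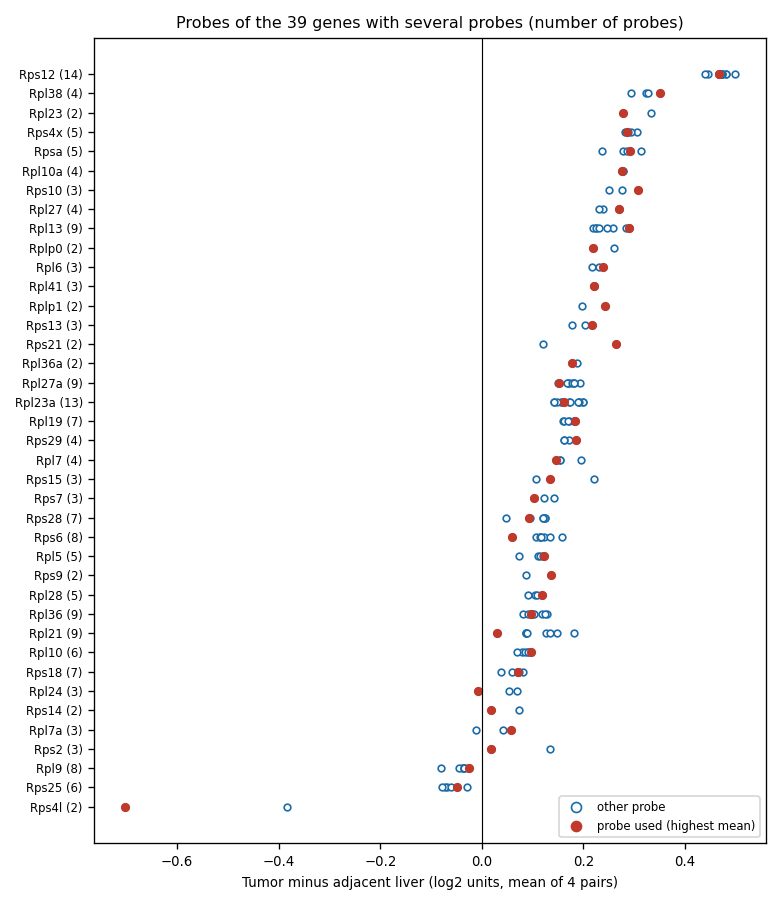
Mean tumor minus adjacent difference in log2 units (horizontal axis, 4 pairs) of every probe of the 39 genes with several probes; filled points are the probe used and numbers in brackets count the probes. Probes of a gene lie close together, as for Rps12 between 0.439 and 0.499, with Rps4l as the widest pair, at -0.703 and -0.384.

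The single-symbol rule leaves out part of the ribosome. RefSeq lists 89 protein-coding genes whose names match the rule, and 27 of them are not among the 63, including Rpl3, Rpl11, Rpl15 and Rps16, whose symbols stand on probes annotated with several genes. When probes with exactly 1 member among several symbols were admitted, an alternative chosen after the data had been seen, 75 genes were tested and 11 rose instead of 5, while Rps4l remained the 1 that fell. Of the 15 genes this added, 13 had a positive difference, against 50.1% of all genes tested in the main fit. The share of all genes that rose in that fit was 16.3%, so the 11 of 75 are near it. In addition to the 5, the genes that rose were Rpl22l1, Rpl3, Rpl15 and Rpl39, which the rule leaves out, and Rpl12 and Rpl29, which it holds with other probes.

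Rpl22l1, the paralog of Rpl22 whose expression the Rpl22 protein is known to repress, showed the largest of these differences. On a probe shared with the predicted gene Gm15421 it was 7.512, 7.476, 7.388 and 7.362 in adjacent liver of M24, M48, M50 and M60, and 8.582, 8.717, 8.334 and 7.922 in the tumors. The groups were far apart, and the difference was 0.954 (SE 0.123, adjusted p = 0.00243). Unlike in most of these genes, M48 had the largest difference, at 1.24, and M60 the smallest, at 0.56. Rpl22 itself, given above, had no settled sign in the same tumors.

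Rpl12, a large subunit protein near the stalk, shows how much the choice of probe matters. Its own single-symbol probe was dim, at 4.468, 4.48, 4.347 and 4.587 in adjacent liver, all below the filter value of 4.597, and passed the filter only through the tumors (mean 4.799). It had thus to differ in the positive direction, and its place among the positive genes counted above is no support for them. The probe shared with Gm32899 was 11.22, 11.47, 11.23 and 11.15 in adjacent liver and 11.56, 12.01, 12.23 and 11.83 in the tumors, with no overlap, a difference of 0.64 (adjusted p = 0.00856). Rpl3, which reaches towards the peptidyl transferase center, was 10.87, 10.73, 10.72 and 10.52 in adjacent liver and 10.97, 11.28, 11.45 and 11.19 in the tumors on a probe shared with Gm5879 (0.512, adjusted p = 0.0195). Rpl15 rose by 0.352 (adjusted p = 0.0326) and Rpl39 by 0.266 (adjusted p = 0.0452). Rpl29 rose by 0.291 on a shared probe (adjusted p = 0.0422), whereas its own single-symbol probe gave 0.0386 (adjusted p = 0.744). Rpl11, the partner of Rpl5, was near 0 on a probe shared with Brf2 (0.0223, adjusted p = 0.871), and Rpl36al, a paralog of Rpl36a, was at -0.0689 on a probe shared with Dnaaf2 (adjusted p = 0.605). Signal of the second gene on each of these probes cannot be told apart from that of the ribosomal protein.

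Start regions were available in the RefSeq table for 51 of the 63 genes, among them 43 core genes with 50 annotated starts. On the gene's strand, the annotated first base was a C followed by at least 4 pyrimidines in 9 of the 50 core starts. This is 18%, against 2.51% of all 32851 starts. Runs that began before the start, as in Rps6, are included. Within 10 bases on either side such a C was found at 50% of core starts and 30.7% of all starts. In the 300 bases from 250 before to 50 after the start, read on both strands, CCGGAAG was present at 36% of core starts and 8.86% of all, GGGCGG at 60% and 35.7%, CACGTG at 14% and 7.15%, and TATAAA at 10% and 13.6%. The 9 genes with such a first base had a median difference of 0.224, against 0.153 for the other 34, and their ranges overlapped (0.0588 to 0.351 and -0.239 to 0.468). The 17 genes with CCGGAAG had a median of 0.153 and the 26 without it 0.168. A match is a string of letters in a window and says nothing of a factor's binding.

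Genes that build and serve the ribosome were examined from lists of known members. Of 94 ribosome biogenesis genes tested 13 rose (13.8%, against 16.3% of all genes) and 1 fell (1.06%, against 15.7%). Their median difference was 0.101, with 0.0461 without M50 and 0.17 without M24. Eif6, which keeps new large subunits from joining small ones, rose from 9.832 ± 0.185 to 10.73 ± 0.401, by 0.901 (adjusted p = 0.00578), with 0.472, 0.93, 1.41 and 0.789 in M24, M48, M50 and M60. Gar1, a protein of the RNA-guided pseudouridine machinery, rose by 0.565 (adjusted p = 0.00905), and Taf1b, a factor of RNA polymerase I, by 0.716 (adjusted p = 0.00992). Sbds, which helps to release Eif6 from the large subunit, fell by 0.574 (adjusted p = 0.00345), from 8.781 ± 0.0374 to 8.208 ± 0.0952, and was lower in all 4 mice. The number that rose was 7 without M48, 5 without M50 and 5 without M60.

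Of 42 translation factors tested 5 rose (11.9%) and 2 fell (4.76%), shares below those of the array, with a median of 0.135. The named genes that rose were Eif1a (0.705, adjusted p = 0.0154) and Eif4g3 (0.479, adjusted p = 0.017), both of initiation, and Pabpc1, the poly(A) binding protein (0.447, adjusted p = 0.0203). Eif4a2, an RNA helicase of initiation, fell by 0.504 (adjusted p = 0.00848), and Eef2k, the kinase that inhibits elongation, fell by 0.415 (adjusted p = 0.0292). Without M24 3 factors rose and 1 fell, and without M50 1 rose and 1 fell. Without M60 0 rose in limma, with 9 higher at an unadjusted p under 0.05, and 1 fell. The list of 18 other TOP mRNAs shares Pabpc1 and Eif4a2 with this list, and these were its only members past the threshold. Its median was 0.0489, with 0.321 for M50, 0.0995 for M60, -0.101 for M24 and -0.0846 for M48, and it was -0.0761 without M50 and 0.117 without M48. Pabpc1 was not past the threshold without M50 or without M60.

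The regulators of ribosome production moved in both directions. Of 32 tested 7 rose and 8 fell with all 4 mice (21.9% and 25%, against 16.3% and 15.7% of all genes). The excess is a few genes and depended on the mice, as given below. The median was 0.0273, with 0.0137 without M60 and 0.0538 without M24. Myc rose from 5.84 ± 0.698 to 7.263 ± 0.501, by 1.42 (adjusted p = 0.00257), with 1.28, 1.05, 2.16 and 1.21 in M24, M48, M50 and M60. The highest adjacent level of Myc, 6.793, was that of M48, the mouse whose adjacent liver also had the highest core ribosomal protein levels. A link between Myc and these levels was not tested. Ddit4, an inhibitor of mTOR induced by stress, rose by 1.70 (adjusted p = 0.000954), and the kinase gene Rps6ka3 rose by 0.731 (adjusted p = 0.00229). Deptor, which binds and inhibits mTOR, fell by 0.595 (adjusted p = 0.00436), Mxi1, an antagonist of Myc, fell by 0.675 (adjusted p = 0.00522), and Larp1b, a relative of Larp1, fell by 0.719 (adjusted p = 0.00286). Larp1 itself differed by -0.0685 (adjusted p = 0.642) and Mtor by 0.126 (adjusted p = 0.353). The number that fell was 4 without M50 or M60 and 5 without M48, and 4 rose without M24. Of all genes tested 9.78%, 8.95% and 14.4% fell without M50, M60 and M48, and 12.4% rose without M24. The 4 of 32 that rose without M24 and the 5 that fell without M48 are thus near the array's shares.

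Of 21 genes of nascent chain binding and ribosome quality control 2 rose (9.52%) and 3 fell (14.3%), shares below those of the array. Those that rose were Eif2ak2, a kinase activated by double-stranded RNA (0.468, adjusted p = 0.0173), and Gtpbp2 (0.404, adjusted p = 0.0393), a GTPase of stalled ribosomes. Those that fell were Hbs1l, which helps to split stalled ribosomes (by 0.641, adjusted p = 0.00206), Zfand2b (by 0.619, adjusted p = 0.00632) and Eif2ak1, the heme-regulated kinase (by 0.55, adjusted p = 0.0078). Gtpbp2 and Eif2ak2 were both short of the threshold without M24 and without M50, and 3 genes fell in each case. Of 7 tested genes that connect ribosomal proteins with p53, 1 rose (14.3%, against 16.3% of all genes) and 0 fell in limma. The list includes Rpl5, Rpl23, Rps7 and Rps27l, which are also among the 60 genes. The gene that rose was Cdkn2a, by 0.966 (adjusted p = 0.02), with 1.37 and 1.64 in M24 and M60 and 0.40 and 0.452 in M48 and M50. It was no longer past the threshold without M24 or without M60. Mdm2 gave 0.261 (adjusted p = 0.124).

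The ribosome of mitochondria is built from other proteins, and their genes gave other values. Of 77 mitochondrial ribosomal protein genes tested 3 rose (3.9%) and 9 fell (11.7%), both below the array's shares of 16.3% and 15.7%. Their median was -0.0636, with -0.122 without M48 and -0.0294 without M60, and the medians by mouse were -0.092 (M24), 0.0685 (M48), -0.0976 (M50) and -0.139 (M60). In M50, where the cytosolic core genes had their highest median, the mitochondrial median was thus below 0. Mrpl14 fell by 0.801 (adjusted p = 0.00133), Mrpl49 by 0.537 (adjusted p = 0.00359) and Mrpl18 by 0.419 (adjusted p = 0.0077), while Mrpl54 rose by 0.363 (adjusted p = 0.0179), Mrps15 by 0.338 (adjusted p = 0.0312) and Mrpl13 by 0.331 (adjusted p = 0.0419). The number that fell was 4 without M24, M50 or M60 and 10 without M48. Of all genes tested 11%, 9.78%, 8.95% and 14.4% fell in these 4 fits, in the same order, so the array lost calls as well. At most 1 rose when any mouse was left out. The difference between the cytosolic and the mitochondrial genes was not tested.

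**Figure D5:**
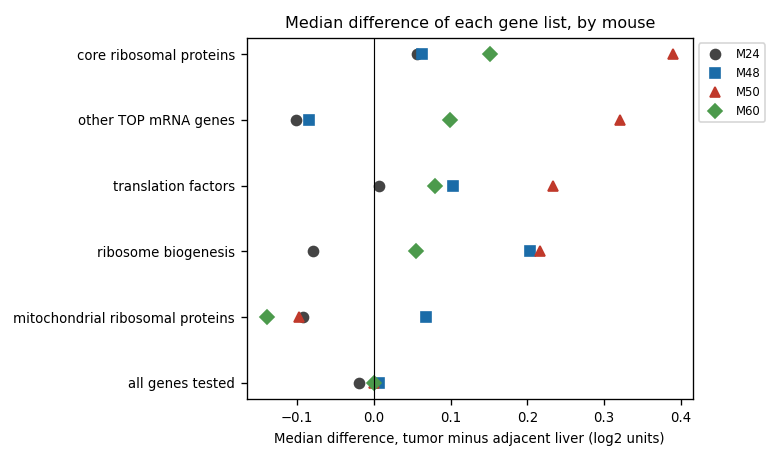
Median tumor minus adjacent difference in log2 units (horizontal axis) of 5 gene lists and of all genes tested, with 1 point for each mouse. The 54 core ribosomal protein genes have a positive median in each mouse, from 0.056 to 0.389, the mitochondrial list has one only in M48, at 0.0685, and the medians of all genes tested lie close to 0.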

How the data were processed

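The values deposited by the authors are on a log2 scale, as judged from their range (1.918 to 14.49), for 28874 probes on 8 Affymetrix mouse gene arrays. Per the labels' protocols, 0.2 ug of total RNA was primed with oligo(dT), amplified and labelled with biotin. The submitters' processing notes name MAS5 without its role, and how background and normalization were handled is not given in the sources used here. Probe medians ran from 4.888 to 5.006, and no further scaling was applied. Probes were named from the array's annotation table, in which 21789 had 1 symbol and 1621 several. All 63 genes were found by gene identifier in RefSeq. Each gene was the single-symbol probe of highest mean, and the lowest 40% of genes (below 4.597) were left out.

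Tumor and adjacent liver were compared with limma 3.58.1 in R 4.3.3 (lmFit, eBayes with a trend), with the mouse as a block, two-sided, with Benjamini-Hochberg adjustment over 11963 genes and a threshold of 0.05. The fit had 3 residual and 3.643 prior degrees of freedom. It was run on simulated data with larger differences than most seen here, which cannot show how it calls differences of this size. The pairing comes from the design text; deviations from the group means correlated at 0.313 (M24), 0.421 (M48), 0.0986 (M50) and 0.111 (M60) within mice and at -0.378 to 0.189 between mice. The genes, lists and alternatives were chosen with earlier results of these data known, so no list was tested as a set. Named genes were those past the threshold, the paralogs, Rps19bp1, Rplp0, Rplp1, Rplp2, Rpsa, Rpl5, Rpl11, Rps6, the 3 with the widest range over mice (Rpl22, Rpl30 and Rpl10l), those of highest and lowest level, and up to 3 genes of each list in each direction; others were named after their values were seen. Start regions were RefSeq's, build GRCm38.p6. The number of arrays limits the precision.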

Additional observations from a re-analysis of the deposited data

Results flagged for a closer look

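In each group of 4 samples of the named genes, the highest or lowest value was set against the range of the group by Dixon's criterion at 95%, which chance alone passes in about 1 of 20 groups. Of 66 groups examined 11 had such a sample. The adjacent liver of M48 accounts for 6 of them. It was high for Rpl38 at 10.46 (others 10.38 to 10.39), Rps4x at 11.1 (10.85 to 10.88), Rplp1 at 12.17 (11.78 to 11.84), Rpsa at 10.92 (10.66 to 10.69), Rpl10l at 4.528 (4.2 to 4.256), and the median of the core genes at 11.09 (10.86 to 10.89). The tumor of M48 was apart for Rpl3l, at 3.495 against 3.485 in the others, a distance with no weight at that level. M50 was apart in the difference of Rps12, at 0.7633 (others 0.3428 to 0.4029), and in the tumor level of Rps19bp1, at 8.265 (7.978 to 7.996). The tumor of M24 was low for Rps4x at 11.03 (11.25 to 11.28) and for Rpl10 at 12.94 (13.16 to 13.18). The genes share arrays, so these samples are not separate events.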

How the results depend on the processing

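In every alternative tried 1 gene, Rps4l, fell, and the median difference stayed positive, between 0.0863 and 0.192. The number of genes that rose was less stable. It was 5 both in the paired analysis and without the replicate block, with 4 genes in common. Leaving out 1 mouse gave 0 to 2 genes (2 without M24, 1 without M48, 1 without M50, 0 without M60 in limma, with 4 at an unadjusted p under 0.05) and medians of 0.0863 to 0.192. The share of all genes that rose was also smaller in these fits, at 12.4%, 14.7%, 11.4% and 10.3% in the same order, against 16.3%. That of all genes that fell was 11%, 14.4%, 9.78% and 8.95%, against 15.7%. Centring the arrays gave 2, no filter 2 and no mean-variance trend 3, while 14.7%, 9.7% and 16% of all genes rose in these fits. Centring also lowered the median to 0.118, with 48 of the 60 genes positive. Probes with several symbols of which 1 was a member gave 11 (75 genes tested), with 16.3% of all genes. Quantile normalization gave 6, and 4 of these were among the 5. On their single-symbol probes, Rpl22 ranged from -0.195 to 0.119 and Rpl30 from -0.0275 to 0.259 when mice were left out. Each had 1 change of sign, and the cause was not tested. Over the named genes and alternatives, 427 values kept direction and side of the threshold, 60 lost the call, 2 gained it and 2 changed sign. With 4 pairs, differences of the size seen here, mostly under 0.3, are near the limit of what limma's test can call.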
